A study of Anopheles gambiae with 104 samples.

Results

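Heads of the malaria mosquito Anopheles gambiae were compared between the subjective day and the subjective night of females held in constant dark (DD). The comparison rests on 16 of the 104 arrays of the study, 8 by day and 8 by night. They were chosen by their labelled tissue, light regime and circadian time (CT), with earlier results of these data known. Day was represented by CT4, CT8, CT28 and CT32 and night by CT16, CT20, CT40 and CT44, each with 2 arrays. All insects were mated females of the Pimperena strain (S form) without a blood meal, 7 to 9 days old when the experiment began, and both periods were sampled in darkness. The whole study covers heads and bodies in DD and in a light:dark cycle (LD) with 11 h of full light and dawn and dusk ramps of 1 h. Every tissue and regime has 13 time points 4 h apart. In DD, CT0 is subjective dawn, set by the light cycle the insects had been kept in before. The day time points fell 16, 20, 40 and 44 h after the lights went off, and the night ones 28, 32, 52 and 56 h after. Each subjective night thus came later in darkness than its day, and period and time in darkness cannot be wholly told apart. Mosquitoes were pooled by 20 to 30, and heads, with mouthparts and antennae, were parted from bodies before RNA was extracted. The labels do not say whether the 2 arrays of a time point come from 1 pool or from separate ones.

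Insects keep time with a transcriptional feedback loop. In Drosophila, where it was worked out, the proteins CLOCK and CYCLE switch on period and timeless, whose products return to the nucleus and repress their own transcription, and light resets the loop by removing TIMELESS. Genes controlled by the loop go on cycling in darkness, while genes that answer only to light stop. Anopheles gambiae is a night-active species that mates at dusk and bites at night, and its head carries the brain with its clock neurons, the compound eyes, the antennae and the mouthparts. A day minus night difference in DD is therefore measured where no light is given at either time, which is the question the comparison addresses.

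Results are given by probe set, the group of short probes that reports 1 transcript or part of it, because 0 probe set names matched a gene in the reference table used here. No clock, visual, olfactory or metabolic gene is therefore named, and the labelled tissue could not be set against marker genes. Differences are day minus night on the log2 scale of the deposited values, where 1 is a doubling. Of 16884 Anopheles probe sets, 7188 had a mean over all head arrays above 3.75, the 95th percentile of the Plasmodium falciparum probe sets on the same array, and were tested. The 2 arrays of a time point were averaged and the 8 time points were the units, since no label names separate pools for them. P-values then measure only the spread between these time points, which may in part be technical. Replicate arrays correlated at 0.985 to 0.994 across probe sets within a time point, no 2 arrays were identical, and array medians lay between 2.99 and 3.18. In pooled heads, fewer cells of a type and less RNA per cell cannot be told apart.

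A small number of transcripts separated day from night in darkness by more than the scatter of the time points. At an adjusted p under 0.05 in limma, 3 of 7188 probe sets (0.0417%) were called, 2 higher by day and 1 higher by night. Ag.2L.538.0_CDS_at was 6.37-fold higher by day, Ag.UNKN.58.0_CDS_at 3.85-fold higher by day, and Ag.UNKN.55.0_CDS_s_at 2.32-fold higher by night. In all 3 the day and night time points did not overlap. The same direction in every pair of time points 12 h apart, on both days of darkness, follows from that and is no further evidence.

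Ag.2L.538.0_CDS_at changed most among the 3. By day its 2 arrays read 10.55 and 10.39 at CT4, 10.71 and 10.51 at CT8, 10.63 and 10.40 at CT28, and 10.75 and 10.38 at CT32. By night they read 7.90 and 7.94 at CT16, 7.35 and 7.53 at CT20, 7.75 and 7.79 at CT40, and 8.27 and 8.42 at CT44. Every day array lay above every night array, the day plateau was flat, and the highest night values were those of CT44. The means were 10.54 ± 0.06 by day and 7.87 ± 0.38 by night (SD, n = 4 time points each). The difference was 2.67 (SE 0.18, 95% interval 2.27 to 3.07, adjusted p = 0.000665, limma). It was 2.86 in the first cycle and 2.48 in the second. Between the periods the level passed through 8.50 at CT0, 9.38 at CT12, 9.79 at CT24, 8.39 at CT36 and 10.10 at CT48. The subjective dawn level was thus nearer to the night mean at CT0 and nearer to the day mean at CT24 and CT48, while the dusk level was nearer to the day mean at CT12 and to the night mean at CT36.

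Ag.UNKN.58.0_CDS_at was the other probe set called higher by day. Its day arrays read 8.52 and 9.03 at CT4, 9.49 and 8.91 at CT8, 8.87 and 8.34 at CT28, and 9.02 and 8.64 at CT32. Its night arrays read 7.15 and 6.93 at CT16, 7.04 and 7.04 at CT20, 6.49 and 6.99 at CT40, and 6.63 and 6.98 at CT44. Here too no day array came down to a night array, and CT44 lay within the range of the other night time points. With 8.85 ± 0.25 by day and 6.91 ± 0.16 by night (SD, n = 4 time points), the difference was 1.95 (SE 0.15, 95% interval 1.61 to 2.28, adjusted p = 0.0011, limma). Over the 4 pairs 12 h apart it ranged from 1.73 to 2.16.

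Ag.UNKN.55.0_CDS_s_at ran the other way. By day its arrays read 10.02 and 10.02 at CT4, 9.75 and 9.77 at CT8, 10.05 and 10.22 at CT28, and 9.69 and 10.09 at CT32. By night they read 10.73 and 10.90 at CT16, 11.38 and 11.30 at CT20, 11.28 and 11.38 at CT40, and 11.08 and 11.28 at CT44. The groups did not overlap, and CT16 was the lowest night time point. The day mean was 9.95 ± 0.16 and the night mean 11.17 ± 0.25 (SD, n = 4 time points), a difference of -1.22 (SE 0.15, 95% interval -1.54 to -0.89, adjusted p = 0.0364, limma). This call is the least secure of the 3. It was lost in 12 of 25 alternative settings, among them leaving out CT8, CT20, CT28, CT32 or CT40, with an adjusted p of up to 0.195 in limma.

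A companion probe set of the same cluster, Ag.UNKN.55.0_CDS_a_at, is added here after its values were seen, since it shares its cluster number with a called one. It averaged 8.58 ± 0.27 by day and 10.06 ± 0.44 by night (SD, n = 4 time points), with no overlap. Its difference of -1.48 (SE 0.23) did not pass (adjusted p = 0.0602, limma). By pair it stood at -0.89 for CT4 minus CT16, -1.78 for CT8 minus CT20, -1.56 for CT28 minus CT40 and -1.70 for CT32 minus CT44. Both probe sets of the cluster had their smallest difference in the pair of CT4 and CT16, and by their names they may report the same transcript.

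**Figure D1:**
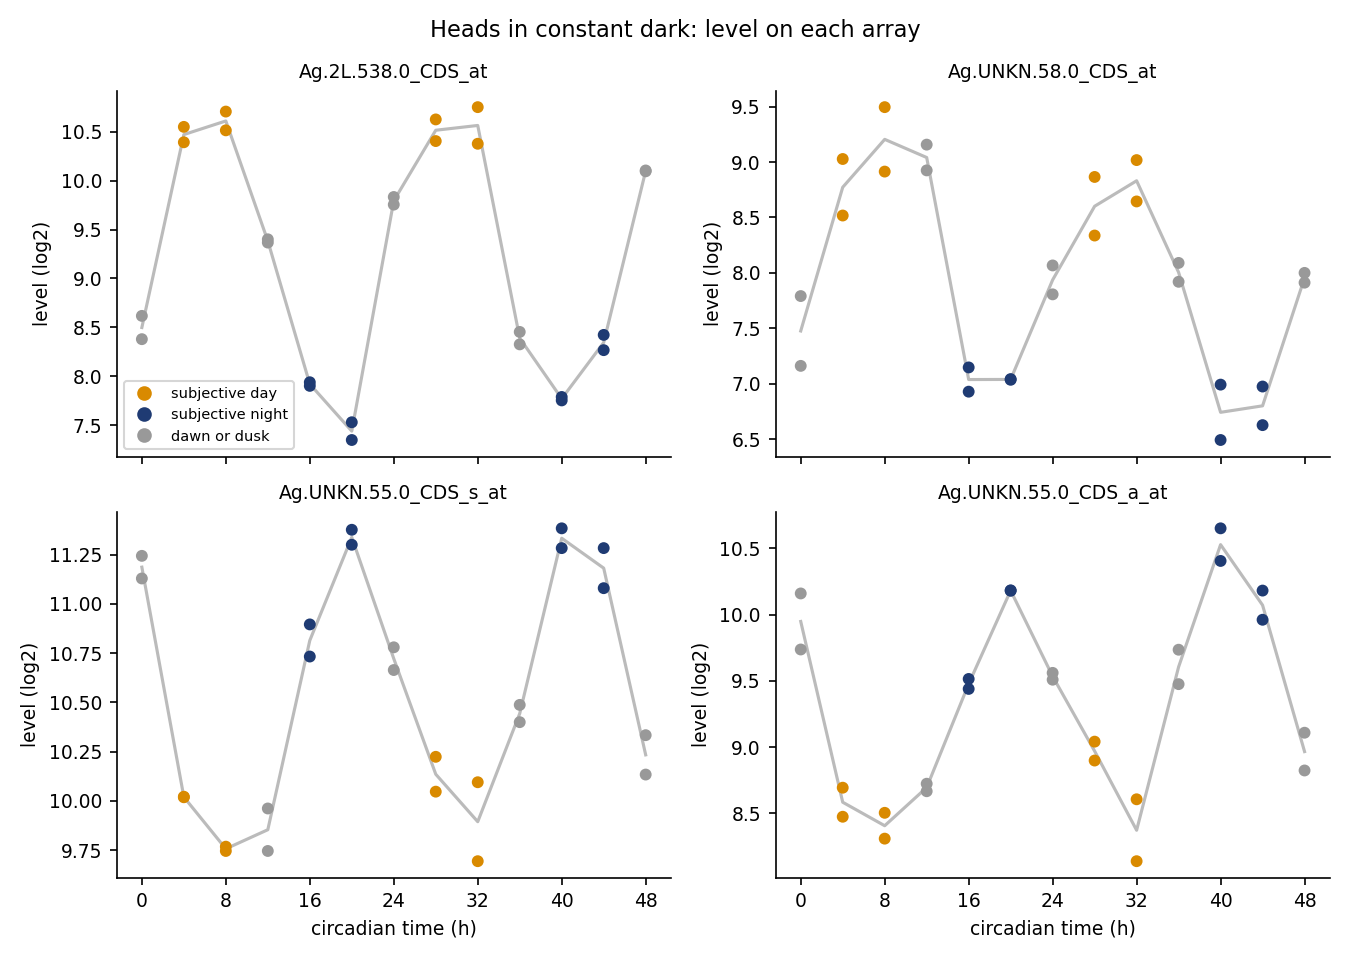
Level (log2) on each array of heads in constant dark against circadian time in hours for the 3 called probe sets and the companion Ag.UNKN.55.0_CDS_a_at. Points are single arrays coloured by period and the line joins time point means. Day and night arrays do not overlap in any of the 4 panels, and dawn and dusk values lie in between or beside one of the periods.

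Beyond these 3, day and night differed in many probe sets by amounts that the adjustment over all of them did not pass. At an unadjusted p under 0.05 in limma there were 806 probe sets (11.2%), 253 higher by day and 553 higher by night. The day and night time points did not overlap in 480 (6.68%), of which 175 (2.43%) were higher by day and 305 (4.24%) higher by night. That lean to the night rests on the scaling of the arrays. As deposited the median difference of all probe sets was -0.05, and after quantile normalization it was -0.01, with 386 higher by day and 448 by night at the unadjusted level and 265 and 275 without overlap. Centring each array on its median gave a median of 0.01, with 420 and 384 at the unadjusted level and 265 and 228 without overlap. The counts of large differences moved less with scaling: 27 probe sets were at least 2-fold higher by day and 58 by night as deposited, 34 and 52 after quantile normalization, and 37 and 50 after centring. Of the 85 as deposited, 38 had periods that did not overlap and 65 an unadjusted p under 0.05. By the chromosome arm in the probe set names, the share without overlap ran from 5.12% for those of unknown arm and 6.09% on arm 2L to 7.87% on arm 2R, near the 6.68% of all.

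The size of a typical difference was close to its error. The median absolute difference was 0.15 and the median SE 0.15. Of the spread over the 8 time points, pooled over the 7188 probe sets, the step from day to night held 22.8%, the hours within the periods 32.8%, the 2 cycles 17.0% and the rest 27.4%. These parts have 1, 2, 1 and 3 degrees of freedom, so the hours within the periods moved levels in sum more than the step from day to night, and less per degree of freedom. Levels at CT4 and CT28 against CT8 and CT32 gave 0 calls in limma and 542 probe sets at an unadjusted p under 0.05. Levels at CT16 and CT40 against CT20 and CT44 gave 0 and 526. In an F-test over the hours within both periods 0 of 7188 (0%) were called in limma, and 543 had an unadjusted p under 0.05. These tests of the hours were chosen after the data had been seen.

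One night time point, CT44, stood apart in its control probe sets. Gapdh encodes a glycolytic enzyme present in every cell, and the array reads it near the 3′ end and near the 5′ end of its mRNA. Broken RNA or short labelling products lower the 5′ reading first, so that the 3′ minus 5′ difference grows. The 2 arrays of CT44 had differences of 7.83 and 7.24, while the 14 arrays of the other 7 time points lay between 3.29 and 5.09. For actin, a cytoskeletal protein, CT44 averaged 5.16, and the lowest night time point was 2.99. The Gapdh 3′ probe set at CT44 was the highest of the night (12.90) and the 5′ one the lowest (5.37). Both arrays of CT44 were therefore far from the others and near each other.

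Over the 4 time points of a period, the Gapdh 3′ minus 5′ difference averaged 4.11 ± 0.26 by day and 5.08 ± 1.65 by night (SD, n = 4; exact permutation test, two-sided p = 0.2, adjusted p = 0.45). The actin difference averaged 2.92 ± 0.16 and 3.79 ± 0.95 (exact permutation test, two-sided p = 0.0857, adjusted p = 0.257). The bacterial dap control, added to the RNA before labelling, averaged 2.77 ± 0.18 and 2.77 ± 0.14 (exact permutation test, two-sided p = 0.971). None of 9 control measures passed after adjustment over the 9, with all time points or without any 1 of them. However, 4 time points against 4 allow no two-sided p below 0.0286. A single measure with its periods fully apart could therefore not pass after adjustment over 9, and the miss does not show that the controls were alike. The 3′ probe sets, at which the kit's labelling starts, moved little: Gapdh averaged 12.54 ± 0.05 by day and 12.64 ± 0.25 by night (exact permutation test, adjusted p = 0.686). What part RNA quality has in the day minus night differences was not tested.

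**Figure D2:**
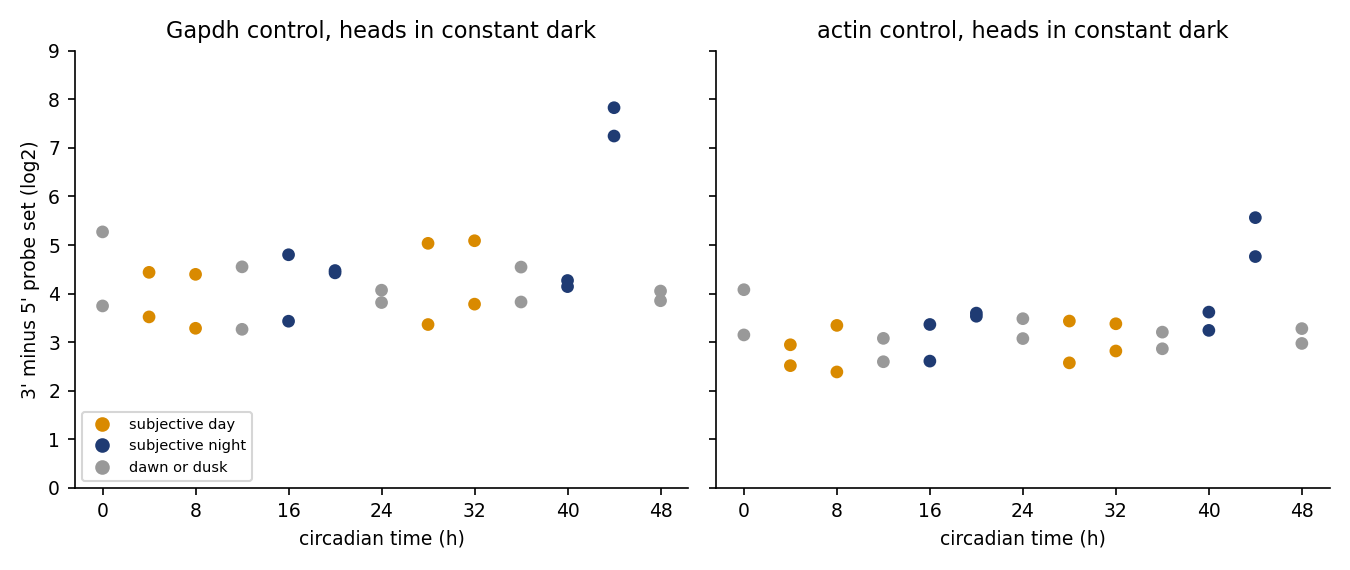
Difference between the 3′ and the 5′ control probe set (log2) for Gapdh and actin on each array of heads in constant dark, against circadian time in hours. Points are single arrays coloured by period. Both arrays of CT44 lie above all other arrays in both panels, at 7.83 and 7.24 for Gapdh.

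Leaving out CT44 left all 3 calls in place and added to them. Without it 21 probe sets were called in limma, 7 higher by day and 14 higher by night, and 14 of them differed at least 2-fold. Those that joined had adjusted p-values of 0.0538 to 0.528 with CT44 in the fit. Ag.2L.538.0_CDS_at differed by 2.83 without CT44, Ag.UNKN.58.0_CDS_at by 1.91 and Ag.UNKN.55.0_CDS_s_at by -1.21. The direction of 6164 of the 7188 probe sets was kept. With the Gapdh difference as a covariate 10 were called, 4 higher by day and 6 by night. CT44 was not alone in this. Leaving out CT4 gave 15 calls (5 and 10) and leaving out CT16 gave 5, while each of the other time points left 2 or 3.

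CT44 also differed from its own period more than other time points did. Across probe sets its deviation from the mean of the other 3 night time points had an SD of 0.49, against 0.26 to 0.38 for each of the other 7 time points from the rest of its period. At CT44, 339 probe sets lay at least 2-fold from the other night time points, and 51 to 191 did so at the other time points. It held the highest of the 8 values in 1678 probe sets, more than any other time point, and the lowest in 1527, where CT32 held it in 1757. Its 2 arrays agree within the range of other pairs: they correlated at 0.991, and the SD of their difference was 0.22 against 0.18 to 0.28 over the time points.

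The days of darkness were compared next, to see whether the differences of the first cycle (CT4 to CT20) came back in the second (CT28 to CT44). In limma 0 of 7188 probe sets (0%) differed between the cycles in their day minus night difference, 312 had an unadjusted p under 0.05, and the lowest adjusted p was 0.0842. Each cycle has 4 time points, which leaves few degrees of freedom, and a miss of the threshold does not show that the cycles were alike. The probe sets nearest to the threshold in either direction are given as values that failed the adjustment.

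Ag.3L.444.0_CDS_at turned around between the cycles. It read 5.87 at CT4, 5.48 at CT8, 9.41 at CT16 and 9.58 at CT20, and then 9.85 at CT28, 8.58 at CT32, 8.27 at CT40 and 6.99 at CT44. It was low by day and high by night on the first day, and highest of all at CT28. The differences of the cycles were -3.83 and 1.59, and their contrast of -5.41 failed the adjustment (adjusted p = 0.233, limma). A change from day to day was not particular to darkness. In LD heads the probe set read 8.87 at ZT28 and 10.75 at ZT32, then 5.89 at ZT52 and 8.03 at ZT56. By night it read 7.57 at ZT16 and 8.88 at ZT20, then 9.74 at ZT40 and 7.68 at ZT44. Its LD difference was -0.08 (adjusted p = 0.967, limma). Ag.3L.197.0_CDS_at had differences of -1.55 and 0.75, a contrast of -2.30 (adjusted p = 0.0842, limma).

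In the other direction, Ag.3L.1729.1_at stood out only in the first subjective day. Its arrays read 4.94 and 5.06 at CT4 and 4.62 and 4.20 at CT8, and the means of the other 6 time points were at most 2.61, below the cutoff for tested levels. Its contrast of 2.13 failed the adjustment (adjusted p = 0.233, limma). It passed the filter through its levels in LD, and its second cycle in DD lies wholly under the cutoff. Ag.3L.312.0_UTR_a_at was 9.41 and 9.37 by day and 8.65 and 8.94 by night in the first cycle, and 8.16 and 8.34 by day and 9.35 and 9.62 by night in the second. That is 0.59 and then -1.24, a contrast of 1.82 (adjusted p = 0.233, limma).

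Heads in LD, on arrays of their own, show which probe sets differ between day and night when light is given. There 1135 of 7188 (15.8%) were called in limma, 480 higher by day and 655 higher by night, with a median SE of 0.09 against 0.15 in DD. In DD these probe sets mostly had the same direction, with smaller differences. Of the 1135, 963 (84.8%) had the same sign in DD, against 4619 of all 7188 (64.3%) and 60.4% of those not called in LD. Without CT44 the shares were 89.7% of the 1135 and 67.1% of all. The LD probe sets higher by day had a median difference of 0.56 in LD and 0.21 in DD, with 394 of 480 in the same direction. Those higher by night had medians of -0.46 and -0.23, with 569 of 655 in the same direction. The list was chosen on its LD values, so its LD sizes are a description. At an unadjusted p under 0.05 in DD, 310 of the 1135 passed in the LD direction and 3 against it, beside 11.2% of all probe sets that passed in either direction. Periods that did not overlap in DD came in the LD direction in 184 (16.2%) and against it in 2, where over all probe sets the share in the LD direction was 5.77%. Across the 7188 probe sets, which are not independent of each other, the LD and DD differences had a Pearson r of 0.57.

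**Figure D3:**
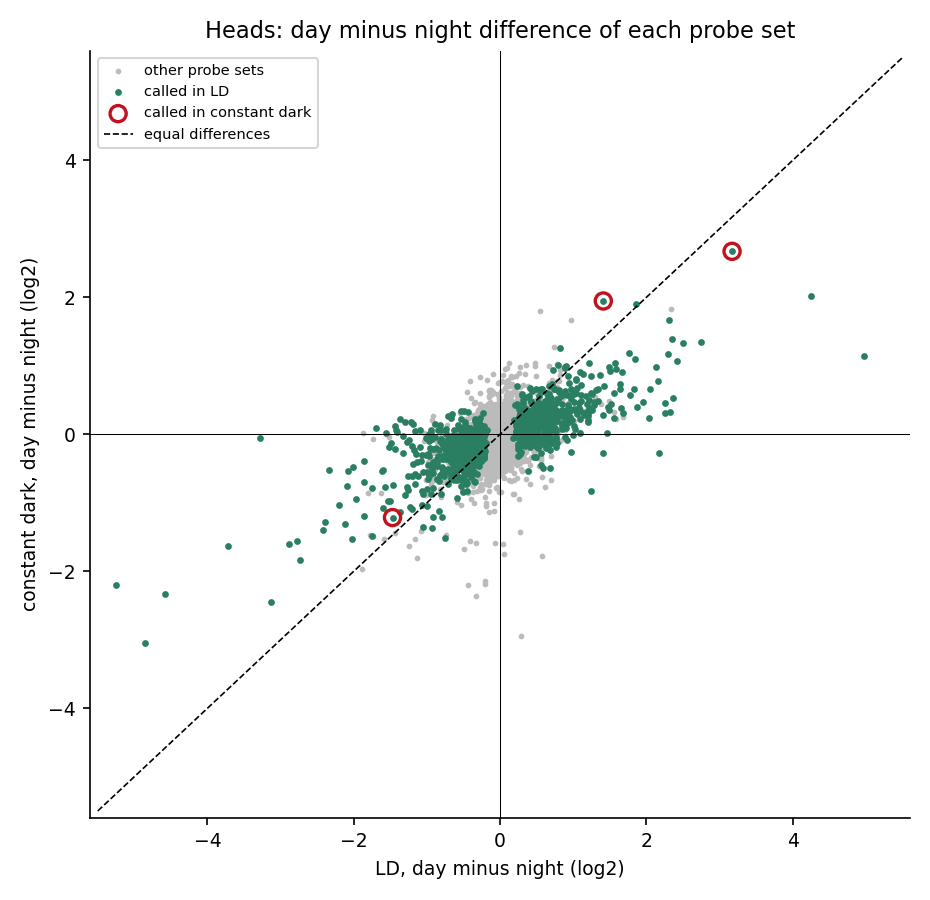
Day minus night difference of each of 7188 probe sets in heads, LD on the horizontal and constant dark on the vertical axis (both log2). Green points were called in LD, red rings mark the 3 called in constant dark, and the dashed line marks equal differences. Most green points lie in the quadrants of equal sign and nearer to 0 on the vertical axis.

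The probe sets with large LD differences were followed over the time points in darkness. Among those at least 2-fold higher by day in LD, 86 of 89 were higher by day in DD, with a median difference of 1.36 in LD and 0.53 in DD. Among those at least 2-fold higher by night, 67 of 78 were higher by night in DD, with medians of -1.41 and -0.60. Measured from each probe set's mean over its 13 time points, the day list had medians of 0.48 at CT4, 0.50 at CT8, -0.43 at CT16 and -0.08 at CT20. On the second day of darkness these were 0.34 at CT28, -0.06 at CT32, -0.47 at CT40 and -0.20 at CT44. The list was high at both hours of the first day, and on the second day only at the earlier hour. CT32 lay below CT8 in 80 of the 89, while CT28 lay below CT4 in 59. Over all 7188, 4671 were lower at CT32 than at CT8 and 5024 lower at CT28 than at CT4.

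By pairs 12 h apart, the day list was higher by day in 80 of 89 for CT4 over CT16 (median 1.06), 69 for CT8 over CT20 (0.50), 80 for CT28 over CT40 (0.78) and 54 for CT32 over CT44 (0.10). In the same pairs the night list had medians of -0.70, -0.85, -0.63 and -0.08, and it was higher by night in 68, 66, 63 and 44 of 78. Over all 7188 probe sets 55.3%, 42.0%, 45.0% and 39.9% were higher by day in these pairs. For CT32 over CT44 the share was 60.7% in the day list and 43.6% in the night list, so the night list's count in that pair is close to that of all probe sets and is no result about the list. In both lists the last pair, which holds CT44, had the smallest median difference. From the first cycle to the second the median difference went from 0.77 to 0.42 in the day list and from -0.78 to -0.42 in the night list, and from -0.01 to -0.08 over all probe sets. The first cycle had the larger difference in 64 of 89 and 49 of 78. Over all probe sets, the difference of the first cycle minus that of the second had a median of 0.08 (quartiles -0.14 and 0.30). Probe sets as a whole thus leaned in the direction of the day list and against that of the night list. No test of these lists was made, their members having been picked for their size in LD.

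**Figure D4:**
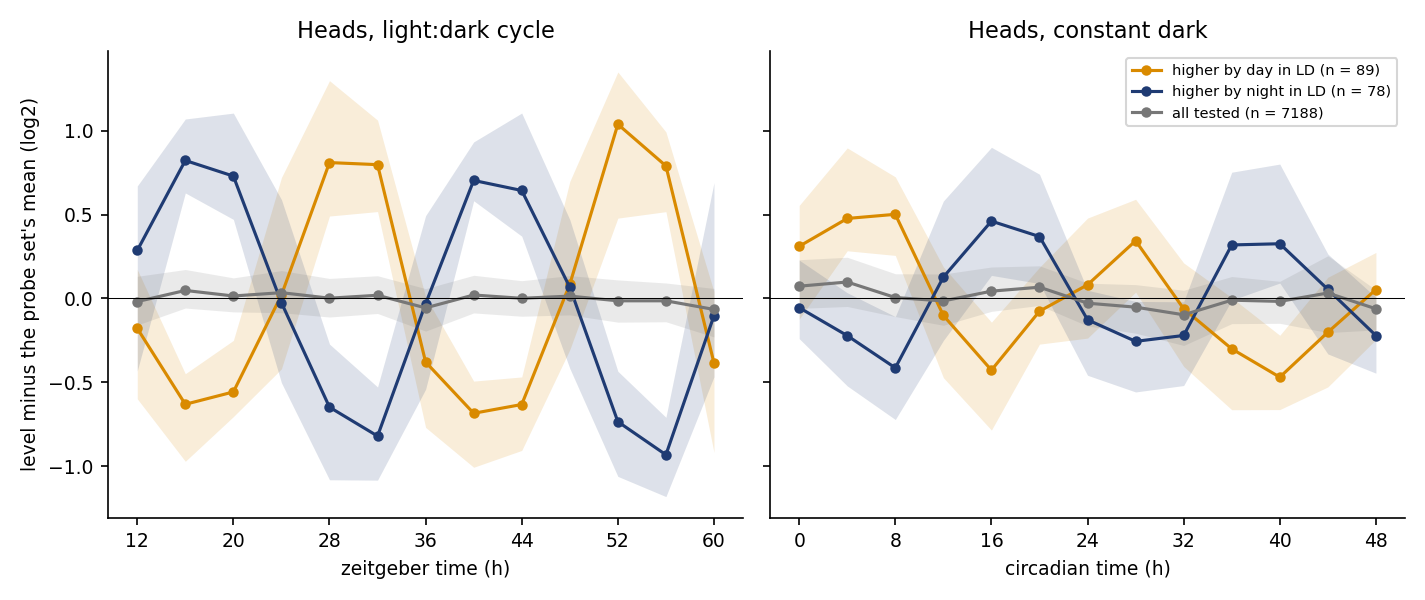
Level minus the probe set's own mean over 13 time points (log2) in heads against time in hours, in LD and in constant dark. Points and lines are medians and bands the quartiles over the 89 and 78 probe sets at least 2-fold higher by day or by night in LD and over all 7188 tested. In constant dark the day list falls from 0.50 at CT8 to -0.06 at CT32, and both lists swing less than in LD.

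The difference between the regimes was tested directly. In limma 19 of 7188 probe sets (0.264%) had a day minus night difference that differed between DD and LD, and 633 had an unadjusted p under 0.05. All 19 were larger in LD and all had been called in LD, 11 higher by night there and 8 higher by day. In DD 12 of them kept the sign and 7 had the opposite one. The level filter took the mean over all head arrays, LD included. A probe set under the cutoff in DD could thus enter through LD, where its difference would then be the larger. How many of the 19 did so was not counted. Of the 1135 called in LD, 19 thus differed between the regimes by this test, while for the rest the difference was not shown. Without CT44 the count was again 19, and it was 8 without CT28, 12 without CT20 or CT32, 10 without ZT16 and 11 without ZT20, ZT40 or ZT52. Control values moved with the regime: over the 8 day and night time points the Gapdh 3′ minus 5′ difference ran from 3.84 to 7.54 in DD and from 2.40 to 2.68 in LD, and that of the added dap control was at least 2.56 in DD and at most 1.65 in LD. The light regime and the state or handling of the RNA cannot be told apart.

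Ag.2R.2131.0_CDS_at had the largest such change. In DD its time point means were 6.30, 5.58, 6.01 and 7.22 by day (CT4, CT8, CT28, CT32) and 8.99, 8.32, 8.92 and 7.66 by night (CT16, CT20, CT40, CT44). The night means all exceeded the day means, with CT32 and CT44 closest to each other. This gave 6.28 ± 0.69 by day and 8.47 ± 0.62 by night in DD (SD, n = 4 time points; difference -2.20, SE 0.39, adjusted p = 0.0867, limma). In LD it stood at 3.87 ± 0.14 and 9.12 ± 0.07, a 38.0-fold night excess. The night means of the regimes lay closer together than their day means, and the interaction was 3.05 (SE 0.43, adjusted p = 0.00601, limma).

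Other probe sets named here had smaller differences in darkness than in LD. Ag.2R.570.0_CDS_s_at was 5.93 ± 0.08 by day and 8.27 ± 0.60 by night in LD, and 5.36 ± 0.13 and 5.88 ± 0.24 in DD (interaction 1.82, adjusted p = 0.0207, limma). Ag.2L.38.0_CDS_a_at was 5.66 ± 0.22 by day and 3.63 ± 0.22 by night in LD, and 4.13 ± 0.31 and 3.89 ± 0.12 in DD (interaction -1.79, adjusted p = 0.00407, limma). Ag.2R.435.3_CDS_a_at went from 5.53 ± 0.30 and 3.66 ± 0.25 in LD to 3.51 ± 0.27 and 3.10 ± 0.32 in DD (interaction -1.47, adjusted p = 0.0302, limma). It passed the cutoff of 3.75 through its LD day level, its other 3 means lie under it, and so a difference in darkness could hardly be measured. The LD night mean of Ag.2L.38.0_CDS_a_at lies under the cutoff too. The call of Ag.2R.435.3_CDS_a_at was lost in 12 of 28 alternative settings.

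The other probe sets named for LD did not pass the test in DD. Ag.3L.1729.1_at, 31.3-fold higher by day in LD, differed by 1.15 in DD (adjusted p = 0.445, limma), and only CT4 and CT8 of its 8 DD time points lay above the cutoff. It passed the filter through its LD levels by day and at dawn. Its LD night mean of 2.88 lies under the cutoff, so its LD fold is set against a level under the cutoff. Ag.2L.1186.0_CDS_at, 19.0-fold higher by day in LD (11.37 ± 0.06 and 7.12 ± 0.17, adjusted p = 5.25e-08, limma), read 10.91 at CT4, 10.90 at CT8, 10.78 at CT28 and 8.64 at CT32 in DD. By night it read 7.28 at CT16, 8.60 at CT20, 8.09 at CT40 and 9.20 at CT44. The periods overlapped, because CT32 lay below CT44 by 0.56, while the other 3 day time points stood above every night one. The difference was 2.01 (SE 0.57, adjusted p = 0.252, limma). Ag.UNKN.314.0_CDS_at, higher by night, read 6.24, 3.56, 5.44 and 4.69 by day and 8.08, 8.04, 8.54 and 7.44 by night, in the same order of time points. Its periods did not overlap, and its difference of -3.04 (SE 0.51), an 8.25-fold night excess, fell short of the threshold (adjusted p = 0.0804, limma). Its CT8 mean lies under the cutoff, as does its LD day mean of 3.65, so the fold is in part set against a level under the cutoff.

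For the 3 probe sets called in DD, the regimes were not shown to differ. Ag.2L.538.0_CDS_at had 10.37 ± 0.12 by day and 7.20 ± 0.52 by night in LD, a difference of 3.17, and DD minus LD was -0.50 (adjusted p = 0.645, limma). Ag.UNKN.58.0_CDS_at had 9.25 ± 0.26 and 7.84 ± 0.16 in LD, a difference of 1.41, and DD minus LD was 0.54 (adjusted p = 0.468, limma). Ag.UNKN.55.0_CDS_s_at differed by -1.47 in LD (adjusted p = 0.0155, limma). All 3 were called in LD too, in the same direction.

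Bodies of the same pools, on other arrays, were set beside heads to see whether the DD differences were shared between the tissues. In bodies in DD 96 of 7325 probe sets (1.31%) were called in limma, 24 higher by day and 72 higher by night, and 1123 had an unadjusted p under 0.05. Leaving out 1 time point lowered the count to between 18 (without CT40) and 64 (without CT20). Of the 96, 62 passed the level cutoff in heads as well, and 54 of the 62 had the same sign there. The 13 of them higher by day in bodies had medians of 0.91 in bodies and 0.30 in heads, and the 49 higher by night -0.64 and -0.24. Over all 6075 probe sets that passed in both tissues, 3841 had the same sign.

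Tested directly, the difference between tissues was called for 41 of 8438 probe sets (0.486%) in limma, and 872 had an unadjusted p under 0.05. In 16 of the 41 heads had the larger difference, 10 of them higher by day, and in 25 bodies did, 23 of them higher by night. The signs were opposite in 27, but 16 of the 41 passed the cutoff in bodies alone and 4 in heads alone. In a tissue below the cutoff the sign of a difference near 0 says little. The count fell to 34 without CT44 and to 13 to 27 without any 1 of the other time points. All 3 probe sets called in heads were among the 41. Ag.2L.538.0_CDS_at was 7.69 ± 0.35 by day and 7.57 ± 0.13 by night in bodies, a difference of 0.12 (SE 0.17, adjusted p = 0.803, limma), so that heads exceeded bodies by 2.56 (adjusted p = 0.00241, limma). Bodies held about the night level of heads at both times. Ag.UNKN.58.0_CDS_at was 7.86 ± 0.19 and 7.77 ± 0.22 in bodies (heads minus bodies 1.86, adjusted p = 0.00241, limma), and Ag.UNKN.55.0_CDS_s_at was 11.62 ± 0.09 and 11.90 ± 0.45 (heads minus bodies -0.94, adjusted p = 0.0397, limma).

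Other probe sets among the 41 differed between day and night in bodies. Those below the cutoff in heads entered the test through their body levels and could show little difference in heads, so the size of their contrast says nothing of heads. Ag.2R.93.0_CDS_at was 4.44 ± 1.09 by day and 8.25 ± 0.41 by night in bodies, and 3.83 ± 0.85 and 4.07 ± 0.36 in heads (heads minus bodies 3.57, SE 0.31, adjusted p = 0.00241, limma). In heads in LD it had reached 7.86 at ZT12, while in DD no head time point exceeded 4.85. Its head values at CT4, CT28 and CT44 (3.12, 3.16 and 3.61) lay under the cutoff. Its head level rose within both subjective days, to 4.85 at CT8 and 4.21 at CT32, which the day mean does not show. Ag.3L.199.0_CDS_at was 4.19 ± 0.53 and 7.44 ± 0.25 in bodies, and 2.34 and 2.32 in heads, below the cutoff. In the other direction Ag.2R.2139.0_CDS_at was 10.49 ± 0.35 by day and 7.92 ± 0.60 by night in bodies and flat in heads at 4.21 ± 0.02 and 4.22 ± 0.10 (heads minus bodies -2.58, adjusted p = 0.00555, limma). In heads in LD it was 4.20 ± 0.01 by day and 4.19 ± 0.03 by night. Whether this nearly constant head level is above the background of the probe set was not tested. Ag.2R.2138.0_CDS_a_at was 7.52 ± 0.22 and 5.98 ± 0.27 in bodies, and 2.73 and 2.73 in heads, again below the cutoff. Of the 41, 21 passed the cutoff in both tissues, 16 in bodies alone and 4 in heads alone, and among the 21 the larger difference was in heads in 13.

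**Figure D5:**
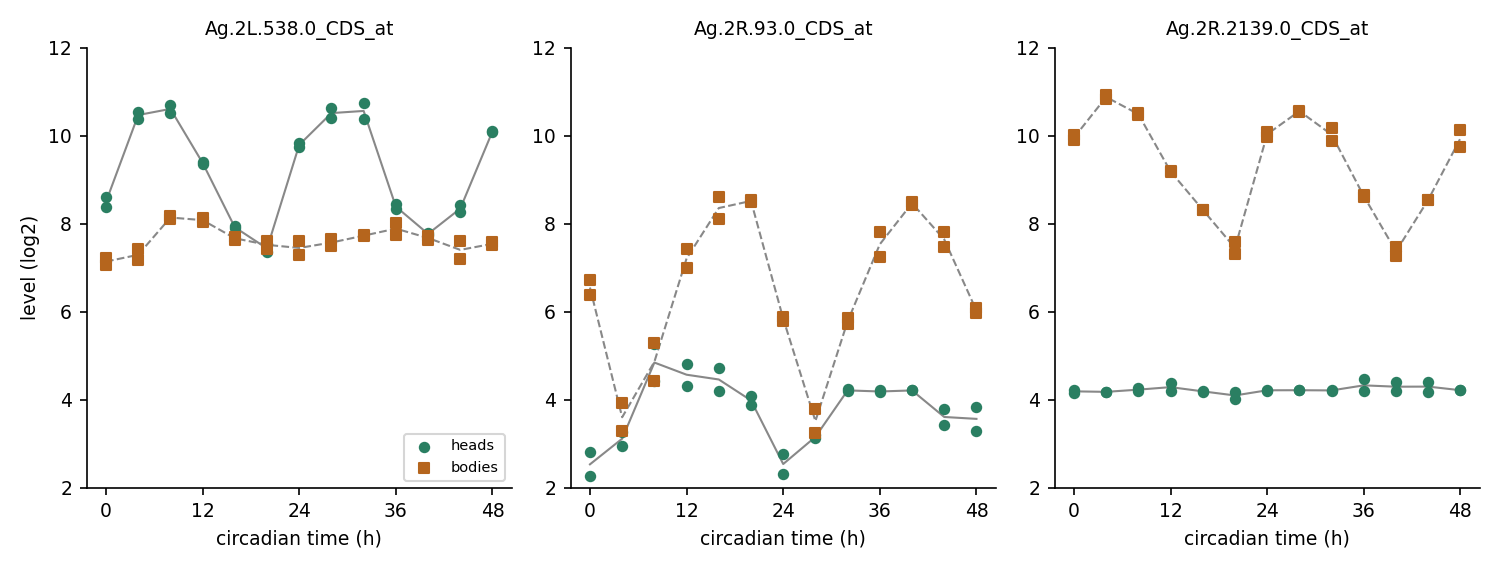
Level (log2) on each array in constant dark against circadian time in hours for 3 probe sets whose day minus night difference differed between heads (circles) and bodies (squares). Lines join time point means. Ag.2L.538.0_CDS_at differs between day and night in heads, and Ag.2R.93.0_CDS_at and Ag.2R.2139.0_CDS_at do so in bodies. Ag.2R.93.0_CDS_at also moves in heads, from 2.53 at CT0 to 4.85 at CT8 and from 2.54 at CT24 to 4.21 at CT32.

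The P. falciparum probe sets, made for the malaria parasite, serve as a reading of background in the same comparison. In limma 0 of 4502 were called between day and night in heads in DD, and 43 (0.955%) had an unadjusted p under 0.05. Their median level was 3.11, and the largest absolute difference was 0.457. Values this low are compressed, so their spread sets no limit for probe sets at higher levels.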

How the data were processed

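Heads and bodies of female Anopheles gambiae in LD and DD were measured on Affymetrix arrays after 3′ in vitro transcription labelling, per the labels' protocols. The deposited values are log2 levels, 1 per probe set and array, which the authors made with GCRMA, per the submitters' processing notes. GCRMA corrects background by probe sequence, normalizes between arrays and summarises probes, which compresses low values. The sources used here give neither its version nor the set of arrays normalized jointly. Values run from 0.69 to 15.63, and the number of arrays limits the precision.

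Groups came from the labels. The 2 arrays of a time point were averaged, and limma 3.58.1 (R 4.3.3; lmFit, eBayes) compared 4 day with 4 night time points, with Benjamini-Hochberg adjustment over all tested probe sets and a threshold of 0.05. Cycles and regimes were tested as interactions, and tissues on head minus body differences of the same time point, since both come from the same pools. The cutoff was 3.75 in heads and 3.78 in bodies, and a probe set passing in either tissue entered the tissue comparison (8438). Control measures had exact permutation tests (70 arrangements). The fits were tested on simulated data. Named probe sets are the first 2 in each direction by absolute difference among those called with the same sign on each replicate. Where none was called, they are the first 2 by unadjusted p. In the comparisons of day with night the periods also had to be without overlap, which was not asked in the regime and tissue tests. The reference table (assembly idAnoGambNW_F1_1, 15165 genes) matched 0 probe set names, so planned gene lists, the tissue marker check and sequences are not reported. Probe sets of other names were not used here.

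The arrays and lists were chosen with earlier results of these data known. Alternatives changed the unit, filter, scaling, covariates, pairing and time points. Figures were drawn with matplotlib.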

Additional observations from a re-analysis of the deposited data

Results flagged for a closer look

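Groups of 4 day or night time points were searched for a value set apart from the other 3, for the 9 control measures in heads in DD and for the named probe sets in heads in DD, heads in LD and bodies in DD (132 groups). About 1 in 20 groups is picked out so by chance. At night CT44 was picked out in the Gapdh middle probe set (10.65), the Gapdh 5′ probe set (5.37) and the Gapdh 3′ minus 5′ difference (7.54), which share their readings. By day CT28 was picked out in the actin 3′ probe set (12.82). Among named probe sets in heads in DD these were CT32 for Ag.2L.1186.0_CDS_at (8.64) and CT44 for Ag.3R.1492.2_at (4.55). In heads in LD they were ZT20 for Ag.3L.197.0_CDS_at (7.11) and ZT56 for Ag.2R.2138.0_CDS_a_at (2.76, below the level cutoff). In bodies in DD they were CT8 (5.02) and CT20 (8.11) for Ag.2R.2131.0_CDS_at and CT20 for Ag.3L.1729.1_at (3.23, below the cutoff). A difference between regimes, by its own test in limma, was found in 19 probe sets, and a difference between tissues in 41. Causes were not tested.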

How the results depend on the processing

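The 3 calls in heads in DD kept their direction under all 25 alternatives. Ag.2L.538.0_CDS_at lost its call on ranks (adjusted p = 0.0619, limma) and Ag.UNKN.58.0_CDS_at with hours as groups and CT44 left out (adjusted p = 0.0566, limma). Their number was 294 with single arrays as units and the replicate number as block, 333 with no block, and 85 with the block and time point as a random block. It was 10 after quantile normalization, 23 after centring, 10 with the Gapdh covariate, 39 with all 13 time points, and 14 and 1 with hours as groups with and without CT44. Leaving out a time point or a replicate gave 2 to 21, with CT44 (21), CT4 (15) and CT16 (5) moving it most. Ranks gave 2 and no filter 3.

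For the cycles, the block gave 36, no block 37, the random block 21 and centring 1, and leave-outs all 0. For DD against LD these were 200, 178 and 96, ranks 43, and leave-outs 8 to 25. For heads against bodies they were 279, 300 and 148, no filter 12, centring 63, ranks 15, and leave-outs 13 to 34. For heads in LD the block gave 2123 and leave-outs 711 (ZT40) to 970. For bodies in DD the block gave 438, no filter 43, and leave-outs 18 to 64, over 1.5 times lower for each time point but CT20. The share of LD calls with the same sign in DD was 89.6% with the Gapdh covariate and 80.6% to 89.7% over leave-outs. The labels tie no shared pool or day to a replicate number. Deviations of same-numbered arrays correlated at -0.07 to 0.31 between time points, over 0.1 in 11 of 28 pairs, so the numbers were not taken as pairs. Control 3′ minus 5′ differences did go with the number: replicate 2 was higher at 11 of 13 time points for Gapdh, 11 for actin and 10 for dap. The arrays taken one by one treat both arrays of a time point as independent, which adds degrees of freedom. No result reversed. With 4 time points a period and a median SE of 0.15, small differences were not detectable.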

Other observations

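Ag.3L.444.0_CDS_at, whose day minus night difference turned between the cycles, followed the same course in the bodies of the same pools. Its 6 highest of 13 time points in heads in DD were also the 6 highest in bodies, with CT28 highest in both (9.85 in heads, 12.82 in bodies) and CT24 lowest (4.72 and 9.46). Ag.3L.197.0_CDS_at and Ag.3L.1729.1_at shared 5 of their 6 highest time points between the tissues, and Ag.3L.312.0_UTR_a_at 3. These probe sets were looked at after their values had been seen, and heads and bodies of a time point come from the same pooled mosquitoes.

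Ag.3L.1729.1_at was 7.85 ± 1.32 by day and 2.88 ± 0.44 by night, a mean under the cutoff, in LD heads (SD over 4 time points, adjusted p = 0.00145, limma). At CT24 in DD its 2 head arrays read 4.17 and 2.65, so that the 2 arrays of 1 time point lay on both sides of the level cutoff.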
